A study of Homo sapiens with 9 samples.

Results

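The KCTD adaptor family was represented by 210 guides against 21 genes, KCTD1 to KCTD21 without a gap, in a pooled sgRNA screen that held 11170 guides against 1117 genes. A guide was counted as a member where the name of its target gene in the deposited table begins with KCTD and a digit. This rule uses no measured value, but it was set with earlier results of these data known. The screen used U251, an established human glioma cell line, whose cells stably carried the sgRNAs and were kept for 72 hours with temozolomide, an alkylating agent used against glioma. The sample titles give 3 libraries at 0 µM, 3 at 200 µM and 3 at 1500 µM, numbered 1 to 3 at each dose, all from the same line grown in DMEM with serum. In the treatment protocol these figures stand in nM, and µM is therefore used only as part of the groups' names. Which nuclease and vector were used, how long after infection the drug was added and whether the numbers mark separate cultures, the labels do not say. P-values therefore measure library-to-library spread alone, and that spread may be technical. No plasmid pool or library from before the treatment was analysed here. A level is thus a guide's relative share of a library's counts at harvest. It gives neither a number of cells nor how well that guide was represented at the start.

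KCTD proteins share an amino-terminal BTB domain, by which they assemble with each other, and many of them use it to bind the scaffold cullin-3. In that arrangement the KCTD protein holds the substrate, cullin-3 carries the RING protein RBX1, and NEDD8 attached to the cullin switches the ligase on. Other members have no settled ubiquitin ligase role and act as subunits of receptors or as partners of transcription factors. Several have been linked to growth control in the brain, among them KCTD11, a suppressor of Hedgehog signalling in medulloblastoma, and KCTD2, an adaptor for Myc degradation in glioma stem cells.

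Total counts per library lay between 1852340 and 2790563. No KCTD guide was at 0 in all 9 libraries, against 148 of the 11170 guides in the table, and 148 of 210 KCTD guides (70.5%) had a count above 0 in every library, against 67.6% of all guides. KCTD guides held 2.003% ± 0.252 of the counts at 0 µM, 2.01% ± 0.187 at 200 µM and 1.79% ± 0.266 at 1500 µM (SD, n = 3). The lowest share was that of replicate 2 at 1500 µM, 1.53% (exact Clopper-Pearson 95% interval 1.52 to 1.55%), a library in which the single guide UBE2A.7 held 18.6% of all counts. With UBE2A.7 left out of the totals the KCTD share was 2.01% ± 0.251 at 0 µM, 2.03% ± 0.215 at 200 µM and 1.98% ± 0.169 at 1500 µM. The 3 doses overlapped in either form, and KCTD guides make up 1.88% of the guides in the table. Between 14 and 16 KCTD guides were at 0 in a library at 0 µM, between 16 and 26 at 200 µM and between 16 and 24 at 1500 µM. As shares these were 6.67 to 7.62%, 7.62 to 12.4% and 7.62 to 11.4% of KCTD guides, against 10.03 to 12.6%, 12.7 to 15.2% and 10.6 to 13.8% of all guides. Where a guide was at 0, an expected count of up to 3 (1.06 to 1.83 CPM) remained possible. CPM are counts scaled to a common library size with TMM factors, computed separately for guides and for gene sums, so guide and gene values are on slightly different scales.

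Libraries that shared a replicate number were more alike in their KCTD guides than libraries that shared a dose. Across the 204 KCTD guides tested, levels correlated at 0.78 to 0.89 in the 9 library pairs of 1 number (Pearson, log2(CPM + 1)) and at 0.33 to 0.50 in the 9 pairs of 1 dose. Guides of a library share its depth and its cells and are not replicates, so no p is given. The summed level of KCTD8 shows the pattern: it was 811, 1322 and 2326 CPM in replicates 1, 2 and 3 at 0 µM, 1025, 1318 and 2320 CPM at 200 µM and 1036, 1279 and 2204 CPM at 1500 µM. Replicate 3 was the highest and replicate 1 the lowest at each dose. The summed level of KCTD17 was 511, 1302 and 635 CPM at 0 µM, 440, 1169 and 504 CPM in the 200 µM libraries and 412, 1300 and 491 CPM in the 1500 µM libraries, so here replicate 2 stood above the others throughout. Because the libraries of a number resembled each other in this way, log2 differences between doses are also given below within each number.

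No KCTD guide and no KCTD gene was called at 1500 against 0 µM in the test set as the main one. That test leaves the replicate number out, so the spread between numbers adds to its errors. Of 204 KCTD guides, 0 passed edgeR's quasi-likelihood test at an adjusted p of 0.05, with 0% of all 10337 guides passing. At an unadjusted p under 0.05 stood 1 KCTD guide, KCTD14.5, or 0.490%, against 0.203% of all guides. DESeq2 also called 0 KCTD guides and had 2 at an unadjusted p under 0.05, KCTD14.5 and KCTD11.9, against 0.59% of all guides. Summed over the 10 guides of each gene, 0 of 21 KCTD genes passed in edgeR or in DESeq2 and none had an unadjusted p under 0.05 in either, with 0% of all 1117 genes passing in edgeR and 0.269% under the unadjusted level. Over all genes DESeq2 called 0.0898% and had 0.358% at the unadjusted level. With the replicate number as a block, edgeR again called no KCTD guide or gene (0% of all guides and 0.0895% of all genes), and the unadjusted level held 4 KCTD guides (1.96%, against 2.61%) and KCTD19 among the genes (4.76%, against 6.62%). DESeq2 with the block called no KCTD feature, 0.058% of all guides and 0.269% of all genes. The lowest adjusted p of a KCTD gene was 0.9996 in edgeR without a block. The median log2 fold change of the KCTD guides was -0.11, against -0.08 for all tested guides, with 81 KCTD guides above 0 and 123 below, whereas 43.9% of all guides were above 0. Within numbers, 27 KCTD guides were higher at 1500 µM in 3 of 3 numbers (13.2%, against 12.1% of all guides) and 28 were lower in 3 of 3 (13.7%, against 12.6%). These shares lay near the background of the whole table. At least 2-fold in 3 of 3 numbers were KCTD11.9 upward (0.490%, against 0.697% of all guides) and KCTD14.5 downward (0.490%, against 0.522%), and no KCTD gene (0.0895% of all genes upward, 0% downward). No KCTD gene had libraries without overlap (1.43% of all genes upward, 0.895% downward). Standard errors of the KCTD gene sums on the log2 scale ran from 0.29 for KCTD2 to 0.53 for KCTD17 without the block and from 0.14 for KCTD15 to 0.23 for KCTD14 with it.

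At 200 against 0 µM the KCTD guides again gave no call. In edgeR 0 of 204 passed, 0 had an unadjusted p under 0.05 (0.135% of all 10336 guides did), and 0% of all guides passed. DESeq2 called none and had KCTD2.1 and KCTD11.9 at an unadjusted p under 0.05, against 0.387% of all guides. None of the 21 gene sums passed or had an unadjusted p under 0.05 in edgeR or DESeq2, with 0% of all genes at either level in edgeR, and the lowest adjusted p of a KCTD gene in edgeR was 0.998. The median log2 fold change of KCTD guides was -0.05, against -0.09 for all tested guides, with 92 above 0 and 112 below. In 3 of 3 numbers, 19 were higher at 200 µM (9.31%, against 10.1% of all guides) and 30 were lower (14.7%, against 13.8%). With the block edgeR called none (0% of all guides and genes) and had 5 KCTD guides (2.45%, against 2.23%) and the genes KCTD11, KCTD14 and KCTD19 (14.3%, against 5.37%) at the unadjusted level. DESeq2 with the block called none, with 0.058% of all guides and 0.0895% of all genes, and DESeq2 without it had 0.269% of all genes at the unadjusted level. KCTD15.4 and KCTD18.1 lay below 0 µM without overlap (0.980%, against 1.12% of all guides), and no KCTD gene was without overlap (1.43% of all genes upward, 0.537% downward).

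Between the doses, at 1500 against 200 µM, 0 of 204 KCTD guides and 0 of 21 KCTD genes passed in edgeR, with 0% of all guides and of all genes passing. KCTD14.5 was the 1 KCTD guide with an unadjusted p under 0.05, against 0.203% of all guides, and no KCTD gene reached that level, against 0.0895% of all genes. DESeq2 without a block called neither and had KCTD14.5 and KCTD2.1 at the unadjusted level, against 0.319% of all guides. DESeq2 with the replicate number as a block called 1 KCTD gene, KCTD4, described below, and 2.55% of the 943 genes to which it gave an adjusted p. The median of KCTD guides was -0.05, against 0.01 for all guides, with 97 above 0 and 107 below. In 3 of 3 numbers 22 KCTD guides were higher at 1500 µM (10.8%, against 13.3% of all guides) and 26 were lower (12.7%, against 11.5%). With the block edgeR called none (0% of all guides and genes) and had 5 KCTD guides (2.45%, against 1.95%) and the genes KCTD4 and KCTD11 (9.52%, against 6.62%) at the unadjusted level. DESeq2 with the block called 0 KCTD guides and 0.873% of all guides with an adjusted p, and without it 0.0897% of all genes, with 0.179% at the unadjusted level. At least 2-fold in 3 of 3 numbers were KCTD10.7 and KCTD11.4 upward (0.980%, against 0.658% of all guides) and KCTD14.5 and KCTD2.1 downward (0.980%, against 0.426%). KCTD1.3, KCTD17.6, KCTD14.5 and KCTD2.1 lay lower at 1500 µM without overlap (1.96%, against 1.16% of all guides), and no KCTD gene lay higher without overlap (0.537% of all genes). The comparisons with 0 µM share the same 3 libraries, so their values are given side by side for each gene and not set against each other.

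The adaptors that hand the small GTPase RhoA to cullin-3 are KCTD10 and KCTD13, which is encoded in an interval of recurrent copy-number change in neurodevelopmental disorders. KCTD10 guides were the scarcest of the family. Their summed level was 466, 390 and 329 CPM in replicates 1, 2 and 3 at 0 µM, 289, 359 and 299 CPM at 200 µM and 401, 511 and 287 CPM at 1500 µM. The libraries at 200 µM lay below those of the same number at 0 µM in all 3 numbers, by -0.69, -0.12 and -0.14 on the log2 scale, while the groups overlapped. As fitted on the log2 scale the difference was -0.34 ± 0.34 (SE) at 200 against 0 µM, 0.35 ± 0.34 at 1500 against 200 µM and 0.02 ± 0.36 at 1500 against 0 µM. By the median over its 9 tested guides KCTD10 was the lowest KCTD gene at 200 against 0 µM, at -0.96 with 7 guides lower, and the highest at 1500 against 200 µM, at 0.80 with 6 guides higher. Of all 1117 genes, 5% had a median under -0.43 in the first of these comparisons and 5% a median over 0.35 in the second. Both comparisons share the 3 libraries at 200 µM, so these 2 placements are not independent. The medians were the values of single guides with large errors, KCTD10.4 (SE 2.36) and KCTD10.8 (SE 1.71). In 3 of 3 numbers only 1 of the 9 guides was lower in the first comparison and 1 higher in the second. The guide KCTD10.7 followed that course, with 127, 38.4 and 44.3 CPM at 0 µM, 46.8, 17.1 and 16.2 CPM in the 200 µM libraries and 99.1, 45.3 and 42.4 CPM in the 1500 µM libraries, and it was at least 2-fold lower at 200 than at 0 µM in 3 of 3 numbers, as 0.639% of all guides were. KCTD13 averaged 637 ± 119, 628 ± 60.9 and 672 ± 93.6 CPM (SD, n = 3) at 0, 200 and 1500 µM, and the difference between 1500 and 0 µM was 0.62, -0.08 and -0.28 within replicates 1, 2 and 3.

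KCTD2, KCTD5 and KCTD17 form a clade of cullin-3 adaptors. KCTD5 acts on the βγ subunits of heterotrimeric G proteins and KCTD17 on trichoplein, a protein that restrains the formation of primary cilia. KCTD2 averaged 601 ± 62.2, 598 ± 82.7 and 575 ± 59.9 CPM (SD, n = 3) at 0, 200 and 1500 µM. KCTD5 had 512 ± 173, 576 ± 229 and 489 ± 127 CPM at these doses. The fitted differences at 1500 against 0 µM were -0.06 ± 0.29 for KCTD2, -0.07 ± 0.38 for KCTD5 and -0.15 ± 0.53 (SE) for KCTD17, all smaller than their errors. With the replicate block KCTD17 had -0.23 ± 0.16 (SE) and did not pass either (adjusted p = 0.810 in edgeR's quasi-likelihood test). Of the clade's 28 tested guides 9 were above 0 at 1500 against 0 µM (43.9% of all guides were), 10 at 200 against 0 µM (42.5%) and 16 at 1500 against 200 µM (50.8%). The guide KCTD2.1 stood out at the low dose. It had 38.0, 23.3 and 28.2 CPM in replicates 1, 2 and 3 at 200 µM, against 5.48, 8.64 and 7.87 CPM at 0 µM. At 1500 µM it was at 4.67, 3.34 and 6.29 CPM, so the libraries at 200 µM stood above the libraries of both other doses. Its log2 fold change was 2.004 ± 1.11 (SE) at 200 against 0 µM and -2.63 ± 1.21 at 1500 against 200 µM, and neither passed edgeR's quasi-likelihood test (adjusted p over all guides rounds to 1.00). Groups that did not overlap upward at 200 against 0 µM were seen for 2 KCTD guides (0.980%), KCTD2.1 and KCTD11.9, against 1.29% of all guides.

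The suppressors of Hedgehog signalling, KCTD11, KCTD21 and KCTD6, are known to direct the deacetylase HDAC1 to degradation. The KCTD11 sum was higher in the treated library of each number, and no test passed. It was 440, 640 and 398 CPM at 0 µM, 615, 824 and 728 CPM in the 200 µM libraries and 562, 661 and 472 CPM in the 1500 µM libraries. The groups overlapped at 200 against 0 µM because replicate 2 at 0 µM lay above replicate 1 at 200 µM. The differences within numbers were 0.48, 0.36 and 0.87 at 200 against 0 µM and 0.35, 0.05 and 0.25 at 1500 against 0 µM. The fitted log2 fold changes were 0.54 ± 0.31 and 0.20 ± 0.33 (SE), and 7 and 6 of the 10 guides were above 0. With the replicate block they were 0.55 ± 0.16 and 0.21 ± 0.18 (SE). Neither passed (adjusted p = 0.811 and 0.827 in edgeR's quasi-likelihood test). In 3 of 3 numbers 4 of the 10 guides were higher at each dose, and KCTD11.7 was lower at 1500 than at 0 µM by -0.95, -0.73 and -0.93. Of all genes, 16.8% were higher in 3 of 3 numbers at 200 µM, as were 5 of the 21 KCTD genes (23.8%): KCTD5, KCTD6, KCTD11, KCTD12 and KCTD19.

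KCTD11.9 was near 0 without drug and present in each treated library. It had 0, 3 and 3 counts in replicates 1, 2 and 3 at 0 µM, 34, 6 and 50 counts at 200 µM and 41, 22 and 36 counts at 1500 µM. The groups did not overlap in either comparison with 0 µM, as with 1.42% of all guides in the upward direction at 1500 µM, where KCTD11.9 was the only such KCTD guide. Its log2 fold change was 3.69 ± 1.84 (SE) at 1500 against 0 µM and 3.55 ± 1.998 at 200 against 0 µM, and it did not pass. It had to reach 10 counts in 3 libraries to be tested and did so in treated libraries alone. KCTD11.10 was at least 2-fold higher at 200 than at 0 µM in 3 of 3 numbers, as were KCTD2.1 and 0.474% of all guides, with 31.4, 144 and 5.64 CPM at 200 µM against 6.70, 49.9 and 1.97 CPM at 0 µM. KCTD11.6, the most abundant KCTD11 guide, had 66.7, 111 and 263 CPM at 200 µM against 57.3, 44.2 and 87.1 CPM at 0 µM, with a log2 fold change of 1.22 ± 0.77 (SE).

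KCTD21 guides were the most abundant of the family. Their sum was 2130, 1521 and 1744 CPM at 0 µM, 1513, 1546 and 1791 CPM in the 200 µM libraries and 1516, 1389 and 1708 CPM in the 1500 µM libraries, and it exceeded 97.6% of genes at 0 µM. The treated libraries lay close together, and the 0 µM group reached higher through replicate 1. In that library KCTD21.1 alone had 1649 CPM, against 8.64 and 130.4 CPM in replicates 2 and 3, and over the 9 libraries its share of the KCTD21 counts ran from 0.131% to 71.0%. The fitted difference at 1500 against 0 µM was -0.23 ± 0.32 (SE), and without KCTD21.1 it was -0.0022. KCTD6 averaged 718 ± 200, 789 ± 213 and 698 ± 183 CPM (SD, n = 3) at 0, 200 and 1500 µM, with differences of 0.10, -0.09 and -0.12 within numbers at 1500 against 0 µM.

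KCTD8, KCTD12 and KCTD16 are auxiliary subunits of the GABAB receptor, where they shape the speed and decay of its G protein signal. KCTD8 averaged 1506 ± 617 CPM at 1500 µM, against 1486 ± 770 CPM at 0 µM (SD, n = 3). KCTD12 had 674 ± 41.2 against 712 ± 152 CPM and KCTD16 had 804 ± 193 against 808 ± 112 CPM in the same groups. The fitted differences at 1500 against 0 µM were 0.02 ± 0.47 for KCTD8, -0.08 ± 0.30 for KCTD12 and -0.0062 ± 0.31 (SE) for KCTD16. Of the group's 30 guides 9 were above 0 at 1500 against 0 µM (43.9% of all guides were), 14 at 200 against 0 µM (42.5%) and 14 at 1500 against 200 µM (50.8%). KCTD12 was the 1 KCTD gene (4.76%) whose libraries did not overlap at 1500 against 200 µM in the downward direction, as with 0.358% of all genes, with 652, 649 and 722 CPM at 1500 µM against 1069, 756 and 723 CPM at 200 µM. Replicate 3 was nearly level between these doses, and the fitted difference was -0.32 ± 0.27 (SE). KCTD12.9 ran the other way from its gene, at 23.3, 63.9 and 101 CPM at 1500 µM against 28.6, 17.8 and 9.84 CPM at 0 µM, with a log2 fold change of 1.72 ± 0.89 (SE) and a lower value in replicate 1. KCTD8.2 had 141, 175 and 167 CPM at 1500 µM against 105, 67.9 and 71.2 CPM at 200 µM, a log2 fold change of 0.98 ± 0.56 (SE) with no overlap. Upward separation of this kind was seen for 2 KCTD guides (0.980%), KCTD8.2 and KCTD1.4, against 1.53% of all guides. At 0 µM KCTD8.2 had 97.5, 63.9 and 146 CPM, which overlapped the levels at 1500 µM.

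KCTD1 and KCTD15 bind AP-2 transcription factors and repress their activity, and KCTD15 limits the neural crest in fish. KCTD1 averaged 1212 ± 198, 1157 ± 212 and 1190 ± 190 CPM (SD, n = 3) at 0, 200 and 1500 µM, differences of at most 0.12 in size within numbers in any comparison. KCTD15 had 1227 ± 232, 1043 ± 223 and 1126 ± 259 CPM at these doses. It was lower than at 0 µM in all 3 numbers at both doses, by -0.21, -0.46 and -0.04 at 200 µM and by -0.20, -0.07 and -0.13 at 1500 µM, with fitted log2 fold changes of -0.25 ± 0.31 and -0.12 ± 0.32 (SE) and 9 and 7 of 10 guides below 0. The KCTD genes lower in 3 of 3 numbers were 6 at 200 µM (28.6%, against 12.6% of all genes), namely KCTD1, KCTD10, KCTD14, KCTD15, KCTD17 and KCTD18, and 3 at 1500 µM (14.3%, against 10.6%), namely KCTD15, KCTD17 and KCTD21. Counts higher in 3 of 3 numbers at 1500 µM were 2 of 21 (9.52%, against 13.9% of all genes), KCTD11 and KCTD19.

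Within this pair of genes KCTD15.4 and KCTD1.3 were the guides without overlap at the high dose. KCTD15.4 had 30.9, 14.8 and 18.9 CPM at 1500 µM against 62.1, 43.7 and 49.2 CPM at 0 µM, with a log2 fold change of -1.28 ± 0.77 (SE). KCTD1.3 had 163, 122 and 138 CPM at 1500 µM against 395, 181 and 218 CPM at 0 µM, with -0.93 ± 0.66. KCTD3.6, KCTD18.1 and KCTD14.5 also lay below 0 µM without overlap, so that 5 KCTD guides did (2.45%, against 1.27% of all guides). KCTD1.4 was lowest at 200 µM, where it had 26.9, 39.4 and 48.7 CPM against 95.7, 180 and 34.4 CPM at 0 µM. It was back at 98.0, 61.1 and 74.7 CPM at 1500 µM, and its log2 fold changes were -1.45 ± 0.81 at 200 against 0 µM and 1.03 ± 0.65 (SE) at 1500 against 200 µM.

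Of the other 8 members, KCTD14 had the largest fitted decrease of the family in both comparisons with 0 µM, most of which was gone without 1 guide. The KCTD14 sum was 1435, 691 and 1372 CPM at 0 µM, 559, 674 and 1010 CPM in the 200 µM libraries and 630, 700 and 1198 CPM in the 1500 µM libraries. The groups overlapped, and the differences within numbers were -1.36, -0.04 and -0.44 at 200 µM and -1.19, 0.02 and -0.20 at 1500 µM. The guide KCTD14.9 had 1343, 65.8 and 247 CPM at 0 µM, 239.8, 132 and 90.3 CPM in the 200 µM libraries and 179.8, 74.0 and 172 CPM in the 1500 µM libraries, and in replicate 1 at 0 µM it made up 85.8% of the gene's counts. The fitted log2 fold changes of the sum were -0.66 ± 0.40 and -0.47 ± 0.40 (SE). With the replicate block they were -0.63 ± 0.25 and -0.45 ± 0.23 (SE), and neither passed (adjusted p = 0.811 and 0.803 in edgeR's quasi-likelihood test). Without KCTD14.9, an alternative added after the data were seen, the values of the fit without a block were -0.15 and 0.087, so the direction at 1500 µM turned. The median over the 10 guides was -0.20 at 200 against 0 µM and -0.05 at 1500 against 0 µM. KCTD14.1 was lower in all numbers at 200 µM, with 22.5, 34.7 and 43.7 CPM against 42.6, 87.9 and 180.1 CPM at 0 µM and a log2 fold change of -1.63 ± 0.79 (SE).

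KCTD14.5 and KCTD14.8 were not counted in any library at 1500 µM. KCTD14.5 had 24, 36 and 3 counts in replicates 1, 2 and 3 at 0 µM and 21, 33 and 24 counts at 200 µM. Against a floor of 3 counts over the group, its pooled level at 1500 µM was at least 26.5-fold lower than at 0 µM and at least 26.9-fold lower than at 200 µM. Such folds, here and below, allow for counting error in the emptied group alone. The spread between libraries is not covered, so they do not bound the effect of a dose. The fitted log2 fold changes, -7.61 ± 2.54 and -7.78 ± 2.56 (SE), depend on the prior count and are no bounds, and with adjusted p-values that round to 1.00 in edgeR's quasi-likelihood test neither passed. KCTD14.8 had 10, 0 and 20 counts at 0 µM and 35, 0 and 0 counts at 200 µM, which puts it at least 12.6-fold lower at 1500 than at 0 µM. KCTD14.8 was thus already at 0 in 1 library without drug and in 2 at the low dose. To be tested a guide had to reach 10 counts in 3 libraries, and both guides did so outside 1500 µM alone. The remaining 8 KCTD14 guides were seen at 1500 µM.

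Guides at 0 in all 3 libraries of a dose were found for other family members too. Among guides with at least 10 summed counts at 0 µM, 5 of 206 KCTD guides (2.43%) were at 0 throughout 1500 µM, against 100 of 10491 guides in the table (0.953%). They were KCTD14.5, KCTD14.8, KCTD20.1, KCTD4.7 and KCTD5.3. With at least 50 summed counts they were 2 of 194 (1.03%), KCTD14.5 and KCTD20.1, against 9 of 9513 (0.0946%). At 200 µM the shares ran the other way with at least 10 summed counts at 0 µM, since 1 of 206 KCTD guides (0.485%), KCTD20.1, was at 0 throughout, against 134 of 10491 guides (1.28%). With at least 50 summed counts it was 1 of 194 (0.515%), against 11 of 9513 (0.116%). Of guides with at least 10 summed counts at 200 µM, 4 of 207 KCTD guides (1.93%) were at 0 throughout 1500 µM, against 1.17% of all guides. With at least 50 they were 2 of 196 (1.02%), against 0.247%. KCTD20.1 had 3, 62 and 18 counts at 0 µM and 0 in all 6 treated libraries. With the spread between libraries left aside, KCTD20.1 was at least 34.9-fold lower at 1500 and at least 33.8-fold lower at 200 than at 0 µM. It failed the filter for testing, as did KCTD4.7, KCTD5.3, KCTD6.7, KCTD10.5 and KCTD17.7, which together are the 6 KCTD guides not tested. In the reverse direction, KCTD17.7 was the 1 of 205 KCTD guides (0.488%) at 0 throughout 0 µM with at least 10 summed counts at 1500 µM, against 100 of 10601 guides (0.943%). With at least 50 it was 0 of 195, against 8 of 9837 (0.0813%). With at least 10 summed counts at 200 µM, 0 of 207 KCTD guides were at 0 throughout 0 µM, against 89 of 10556 (0.843%). KCTD10.5 had 15, 0 and 60 counts at 1500 µM and 0 in each library at 200 µM, the 1 such guide among 205 KCTD guides with at least 10 summed counts at 1500 µM (0.488%), against 181 of 10601 guides (1.71%). With at least 50 summed counts the order turned, with KCTD10.5 the 1 of 195 (0.513%), against 36 of 9837 guides (0.366%). Most of these guides were seen in 1 or 2 libraries of the dose at which they were present.

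KCTD19, which in mice is needed for male meiosis, had the largest fitted increase of the family at 1500 against 0 µM. Its sum was 738, 387 and 895 CPM at 0 µM, 791, 513 and 1576 CPM in the 200 µM libraries and 1017, 495 and 1129 CPM in the 1500 µM libraries. The treated libraries were higher in every number, by 0.46, 0.35 and 0.33 at 1500 µM and by 0.10, 0.40 and 0.82 at 200 µM, while replicate 2 stayed below the other numbers at each dose and the groups overlapped. The fitted log2 fold changes were 0.38 ± 0.43 and 0.495 ± 0.50 (SE), and with the block 0.38 ± 0.15 (SE) at 1500 against 0 µM, which did not pass either (adjusted p = 0.656 in edgeR's quasi-likelihood test). There were 8 of 10 guides above 0 in both, with guide medians of 0.27 and 0.35. KCTD19 had the highest guide median of the family in both, and 5% of all genes exceeded 0.36 and 0.34. In the fit without the block its guides differed little from each other at 1500 against 0 µM. Their SD was 0.31, against a median SD of 0.63 over all genes. With the block this was not so. The guides then ran from -1.26 for KCTD19.5 to 0.83 for KCTD19.2, and KCTD19.4 and KCTD19.9 were also below 0, at -0.063 and -0.38. KCTD19.4, the most abundant KCTD19 guide, made up 18.5% of the sum, and without it the fold change at 1500 against 0 µM was 0.41.

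KCTD4 was the 1 family member called in any of the alternatives. Its sum was 937, 693 and 1084 CPM at 1500 µM against 1119, 845 and 1366 CPM at 200 µM, lower in replicates 1, 2 and 3 by -0.26, -0.29 and -0.33. At 0 µM it was 858, 847 and 1163 CPM, which overlaps both. In the fit of 1500 against 200 µM the log2 fold change was -0.29 ± 0.30 (SE) by edgeR's quasi-likelihood test without a block. With the replicate block DESeq2 gave -0.2996 ± 0.091 (SE) and called it (adjusted p = 0.0459), whereas edgeR with the block did not (adjusted p = 0.640). KCTD4.8 made up 52.8% of the sum on average, the largest share of any top guide in the family, and without it the difference in the main fit was -0.40. At 1500 against 0 µM the KCTD4 difference was -0.08 ± 0.31 (SE). The KCTD genes lower at 1500 than at 200 µM in 3 of 3 numbers were KCTD4, KCTD6, KCTD11 and KCTD12, 19.0% of the family against 15.2% of all genes, and KCTD7, KCTD14 and KCTD16 were higher in 3 of 3 (14.3%, against 12.7%).

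KCTD7, mutated in a progressive myoclonic epilepsy, was higher in replicate 3 at 0 µM than anywhere else. Its sum was 495, 590 and 1804 CPM at 0 µM, 584, 543 and 986 CPM in the 200 µM libraries and 687, 588 and 1047 CPM in the 1500 µM libraries. In that library KCTD7.4 alone had 870 CPM and 49.5% of the gene's counts, and in replicate 3 it had 192 CPM at 200 µM and 219 CPM at 1500 µM. The fitted difference at 1500 against 0 µM was -0.32 ± 0.52 (SE), and without KCTD7.4 it was 0.078. KCTD3, a partner of the ion channel HCN3, averaged 1327 ± 344, 1448 ± 281 and 1320 ± 392 CPM (SD, n = 3) at 0, 200 and 1500 µM. KCTD20, a regulator of the kinase AKT, had 1172 ± 195, 1134 ± 78.0 and 1235 ± 192 CPM at these doses. KCTD9 had 953 ± 113, 952 ± 53.5 and 915 ± 180 CPM, and KCTD18 had 1062 ± 248, 925 ± 203 and 901 ± 90.6 CPM. In these 4 genes the fitted differences at 1500 against 0 µM were -0.0088 ± 0.36 for KCTD3, 0.07 ± 0.30 for KCTD20, -0.06 ± 0.29 for KCTD9 and -0.24 ± 0.30 (SE) for KCTD18. KCTD18.1, its most abundant guide, was below 0 µM without overlap at both doses.

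Ordered by the summed level at 0 µM, the family ran from KCTD10 with 395 ± 68.6 CPM, KCTD11 with 492 ± 130 CPM and KCTD5 with 512 ± 173 CPM up to KCTD3 with 1327 ± 344 CPM, KCTD8 with 1486 ± 770 CPM and KCTD21 with 1799 ± 308 CPM (SD, n = 3). Neighbours in this order differed by less than the larger SD of the pair, while the libraries of KCTD10 and KCTD21 did not overlap. KCTD10 exceeded 14.1% of the 1117 genes at 0 µM and KCTD21 exceeded 97.6%. These levels depend on how well the 10 guides of a gene were represented in the library, which was not measured here. Single guides weighed heavily in many sums: the most abundant guide of a KCTD gene held between 16.0% (KCTD11) and 52.8% (KCTD4) of its mean sum.

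The cullin-3 machinery that KCTD adaptors depend on was represented by 10 of 23 listed genes, CUL3, RBX1, NEDD8, NAE1, UBA3, UBE2M, UBE2F, DCUN1D1, CAND1 and CAND2. In the gene sums 0 of 10 passed edgeR's quasi-likelihood test in either direction in any comparison, with 0% of all genes passing. Their median log2 fold change was 0.19 at 1500 against 0 µM, against -0.03 for all genes, with 6 above 0 and 4 below (44.8% of all genes were above 0). At 200 against 0 µM it was 0.06, against -0.03, with 6 above 0 and 4 below (43.9% of all genes above 0). At 1500 against 200 µM it was 0.17, against -0.01, with 9 above 0 and 1 below (47.0% of all genes above 0). CUL3 itself had 760, 694 and 567 CPM at 1500 µM against 791, 697 and 621 CPM at 0 µM, and the groups overlapped. DCUN1D1, which assists neddylation of cullins, had the lowest p of the list, with 34745, 9562 and 7000 CPM at 1500 µM against 5445, 1054 and 3614 CPM at 0 µM, a log2 fold change of 2.34 ± 0.95 (SE) and an adjusted p of 0.9996 in edgeR's quasi-likelihood test. Of 12 listed partners and relatives of KCTD proteins, TNFAIP1, another RhoA adaptor of the KCTD10 group, AKT1, BTBD10 and SHKBP1, a relative of KCTD3, were measured. None of these 4 passed in any comparison, and their median was -0.19 at 1500 against 0 µM, with 1 above 0 and 3 below. TNFAIP1 had the lowest p there, at -0.40 ± 0.58 (SE), with 481, 1308 and 853 CPM at 1500 µM against 489, 2207 and 810 CPM at 0 µM.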

How the data were processed

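Raw counts of each sgRNA in 9 libraries of U251 cells at 3 doses were deposited by the authors in 1 table. Per the submitters' processing notes, cutadapt 1.18 and MAGeCK 0.5.8 were used, with hg19 as the build. Mismatch settings, filters on guides and amplification were not given in the sources used here. Guide sequences were not used here. No coordinate is given. All 21 KCTD symbols were current in a RefSeq gene table.

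A guide entered the tests with 10 or more counts in 3 or more libraries, in edgeR 4.0.16 (R 4.3.3) with TMM factors, a robust quasi-likelihood fit on the 6 libraries of a comparison, no block, and Benjamini-Hochberg adjustment over all guides. Counts summed per gene were fitted in the same way with their own TMM factors. The threshold was an adjusted p of 0.05. Each SE is the size of the log2 fold change divided by the root of F. CPM values use the TMM factors of all 9 libraries, of guides for guides and of gene sums for genes. Differences within numbers are of log2(CPM + 1). The counting error alone is covered by intervals and floors. Both fits were tested on simulated data. Alternatives were DESeq2 1.42.0, the block, other filters, no TMM, all 9 libraries, and leaving out each library.

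Guides were to be named where they were among the 3 of lowest p per direction in a comparison or the most abundant of a gene. Only some of the most abundant guides were in fact named. Guides at 0 in all libraries were also to be named, and there were none. Other guides were named after their values were seen. The members and lists were chosen with earlier results of these data known. After subtraction of each dose's mean, the 9 pairs of libraries sharing a number correlated at 0.67 to 0.78 across all tested guides. This is above 0.1 in every pair, so the numbers count as a pairing, on the ground of the data and not of the labels. The main fit leaves this pairing out, so its SE also hold the spread between numbers. For KCTD8 at 1500 against 0 µM the SE was 0.47 without the block and 0.16 with it. At 1500 against 0 µM the main fit put 0.203% of all guides and 0.269% of all genes under an unadjusted p of 0.05. These shares are far smaller than that level, so the main fit was conservative. A difference smaller than its SE, or not called, in the main fit is therefore not shown to be absent.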

Additional observations from a re-analysis of the deposited data

How the results depend on the processing

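No KCTD guide passed in any comparison under any alternative run, and of the KCTD genes only KCTD4 did, in DESeq2 with the replicate block at 1500 against 200 µM (1 call, log2 fold change -0.30). Over the whole table the counts of calls moved away from 0 in these cases. DESeq2 with the replicate block called 6 guides at 1500 against 0 µM, 6 at 200 against 0 µM and 43 at 1500 against 200 µM, and 3, 1 and 24 genes. DESeq2 without the block called 1 gene at 1500 against 0 µM and 1 at 1500 against 200 µM, and edgeR with the replicate block called 1 gene at 1500 against 0 µM. The block changed no call of a KCTD feature in edgeR. At an unadjusted p under 0.05 edgeR with the block held 4, 5 and 5 KCTD guides at 1500 against 0 µM, 200 against 0 µM and 1500 against 200 µM (2.61%, 2.23% and 1.95% of all guides) and 1, 3 and 2 KCTD genes (6.62%, 5.37% and 6.62% of all genes). The 18 guide differences of lowest p, 3 per direction and comparison, were picked by the main fit of these same libraries. An unchanged direction is therefore no independent support for them. They kept their direction in all 225 values recomputed for them. This does not hold for every guide named: with the block KCTD19.4 turned to -0.063 at 1500 against 0 µM, against 0.077 without it, KCTD17.6 to 0.25 at 200 against 0 µM, against -0.052, and at 1500 against 200 µM KCTD21.1 to -0.59, against 0.41, KCTD3.6 to 0.054, against -0.13, and KCTD7.4 to -1.08, against 0.0088.

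The sums of KCTD genes changed direction in many alternatives, and none of those values passed a test. Total counts without TMM moved the median of all genes by up to 0.14, from -0.01 to -0.15 at 1500 against 200 µM. Without TMM the values at 1500 against 0 µM were -0.080 for KCTD8, -0.094 for KCTD10, -0.026 for KCTD13 and -0.010 for KCTD20, at 200 against 0 µM 0.028 for KCTD2, 0.039 for KCTD9 and 0.00897 for KCTD13, and at 1500 against 200 µM -0.10 for KCTD1, -0.035 for KCTD13, -0.030 for KCTD15, -0.012 for KCTD16 and -0.12 for KCTD17. With the replicate block KCTD10 had -0.00826 in edgeR and -0.021 in DESeq2 at 1500 against 0 µM. Without the most abundant guide of each gene, tried after the data were seen, the values were 0.13 for KCTD3, 0.053 for KCTD6, 0.078 for KCTD7, -0.00883 for KCTD8, 0.11 for KCTD9, -0.024 for KCTD13, 0.087 for KCTD14 and 0.00197 for KCTD16 at 1500 against 0 µM, and 0.19 for KCTD9, 0.015 for KCTD20 and 0.16 for KCTD21 at 200 against 0 µM. Leaving out each library in turn gave, at 1500 against 0 µM, -0.14 to 0.094 for KCTD1, -0.15 to 0.00531 for KCTD2, -0.25 to 0.23 for KCTD3, -0.24 to 0.088 for KCTD4, -0.32 to 0.19 for KCTD5, -0.25 to 0.19 for KCTD6, -0.63 to 0.51 for KCTD7, -0.37 to 0.50 for KCTD8, -0.22 to 0.061 for KCTD9, -0.20 to 0.20 for KCTD10, -0.24 to 0.092 for KCTD12, -0.061 to 0.20 for KCTD13, -0.27 to 0.048 for KCTD15, -0.14 to 0.18 for KCTD16, -0.86 to 0.34 for KCTD17 and -0.078 to 0.18 for KCTD20. At 200 against 0 µM these ranges were -0.22 to 0.062 for KCTD1, -0.10 to 0.10 for KCTD2, -0.00618 to 0.35 for KCTD3, -0.18 to 0.42 for KCTD5, -0.12 to 0.38 for KCTD6, -0.77 to 0.37 for KCTD7, -0.34 to 0.54 for KCTD8, -0.10 to 0.079 for KCTD9, -0.16 to 0.086 for KCTD13, -0.23 to 0.049 for KCTD16, -0.80 to 0.30 for KCTD17, -0.050 to 0.80 for KCTD19 and -0.18 to 0.023 for KCTD20, and at 1500 against 200 µM -0.081 to 0.18 for KCTD1, -0.15 to 0.022 for KCTD2, -0.37 to 0.062 for KCTD3, -0.47 to 0.11 for KCTD5, -0.38 to 0.069 for KCTD6, -0.14 to 0.47 for KCTD7, -0.43 to 0.37 for KCTD8, -0.21 to 0.066 for KCTD9, -0.015 to 0.17 for KCTD13, -0.17 to 0.46 for KCTD14, -0.032 to 0.29 for KCTD15, -0.056 to 0.31 for KCTD16, -0.64 to 0.64 for KCTD17, -0.16 to 0.15 for KCTD18, -0.43 to 0.44 for KCTD19 and -0.15 to 0.018 for KCTD21. The cause of these changes was not tested. At this depth a guide at 0 in a library may still have had an expected count of up to 3, and several gene sums were held largely by 1 guide.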
